A study of Mus musculus with 26 samples.

Results

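Whole tumours of KPC mice given GS9820, a drug that blocks p110δ, one of the catalytic subunits of phosphoinositide 3-kinases, were compared with tumours of KPC mice given vehicle. The members were the 12 tumour libraries of the 26 in the series, 5 labelled as treated and 7 as vehicle, taken by their titles. Treated tumours are labelled as GS9820 at 14 days after treatment, vehicle tumours carry no day, and the strain of both is given as KPC. Tumour RNA was total RNA sequenced after removal of ribosomal RNA, and the labels give neither age nor sex nor whether tumours were pooled. What both groups share is the KPC genotype, a genetically engineered mouse model of pancreatic ductal adenocarcinoma driven by a Cre recombinase active in the pancreas, so that the tumours arise in place and carry stroma, vessels and leftover pancreas. Nothing in the labels says that libraries come from separate animals, so p-values measure only the spread between these samples.

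Phosphoinositide 3-kinases phosphorylate a membrane lipid that recruits kinases such as AKT, and through mTOR they feed ribosome production, protein folding, nucleotide synthesis and glycolysis. The p110δ subunit is found mainly in leukocytes, and an inhibitor of it is known to act on regulatory T cells and myeloid cells more than on epithelium. A drug of this kind blocks the enzyme and not its transcript, so the level of Pik3cd is no check of treatment. Pik3cd stood at 4.56, 5.58, 5.29, 6.32 and 5.87 in treated tumours 1 to 5, against 3.74, 4.99 and 5.52 (lowest, median and highest) in vehicle tumours, on the log2 scale of the deposited values. The groups overlapped and the change of 0.70 ± 0.34 (SE) did not pass the threshold (limma, adjusted p = 0.229).

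The libraries differed in what tissue they held. Among the 16 lists of cell type markers, the carcinoma epithelium list averaged 6.22 to 8.47 in treated tumours and 3.68 to 8.14 in vehicle tumours, with the low end in vehicle tumour 1. The keratin gene Krt18, which marks simple epithelium, lay between 9.82 and 11.32 in treated tumours and between 8.40 and 11.74 in vehicle tumours, so all 12 libraries held epithelial RNA. Intestinal epithelium markers averaged 11.21 in treated tumour 1 and 1.58 to 4.81 in treated tumours 2 to 5, while vehicle tumours lay at 1.36 to 5.0. Hepatocyte markers averaged 11.79 in treated tumour 3 and 6.67 in treated tumour 1, and 6.73 in vehicle tumour 4. Islet markers averaged 3.68 to 6.85 in treated tumours, -0.06 to 2.05 in vehicle tumours 1 to 5, and 5.31 and 3.89 in vehicle tumours 6 and 7. Acinar markers ran from 5.42 to 10.02 in treated tumours and from 2.40 to 9.75 in vehicle tumours. In whole tumours, fewer cells of a type and less RNA per cell cannot be told apart.

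**Figure D1:**
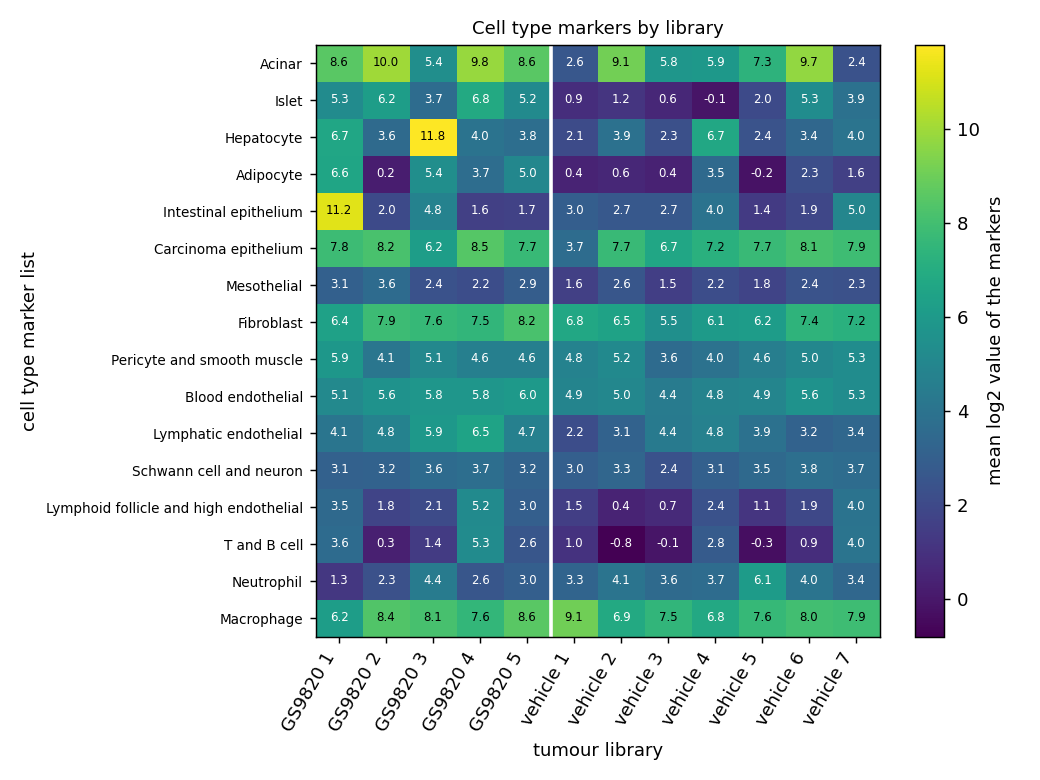
Mean log2 value of each list of cell type markers (rows) in each tumour library (columns, GS9820 left of the line and vehicle right of it). Treated tumour 1 stands out in intestinal epithelium (11.2) and treated tumour 3 in hepatocyte markers (11.8), and islet markers are low in vehicle tumours 1 to 5.

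Differences were spread over many genes, and most were modest for any one gene. Of 16296 genes tested, 143 (0.878%) rose and 216 (1.33%) fell at an adjusted p under 0.05 (limma), together 2.2% of the genes. Rises had a median change of 1.85 and ran from 0.84 to 5.20, and falls had a median of -1.22 with sizes from 0.51 to 4.62. Of the genes that rose, 115 code for protein and 14 are annotated as pseudogenes, and of those that fell, 168 and 23. At an unadjusted p under 0.05 stood 24.4% of all genes, 1489 of them higher and 2493 lower in treated tumours. The 2 groups did not overlap for 94 of the 143 genes that rose and for 151 of the 216 that fell, against 2.81% of all genes tested. Without treated tumours 1 and 3, which had the highest intestinal and hepatocyte marker means, 137 genes rose and 210 fell, and 181 of the 359 genes were among them. All 359 kept their direction and an unadjusted p under 0.05 there. That fit leaves out libraries of 1 group only, and it keeps vehicle tumour 4, whose hepatocyte mean (6.73) lay above that of treated tumour 1 (6.67). The islet and acinar list medians were 4.75 and 3.59 in it, against 4.17 and 2.43 with all 12 libraries. So it does not even out the tissue between the groups, here or for the single genes below.

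Which genes passed depended on single libraries. With each of the 12 libraries left out in turn, the count of rises lay between 0 and 498 and that of falls between 0 and 1195. Both extremes came from 1 library each: without treated tumour 4 no gene passed (limma, smallest adjusted p = 0.0684, with 2916 genes at an unadjusted p under 0.05), and without vehicle tumour 5 the counts were highest. Without treated tumour 2, 24 genes rose and 7 fell. Leaving out treated tumour 5 or vehicle tumours 1, 2, 3, 4 or 7 also cut both counts by over 1.5 times, to between 41 and 85 rises and between 27 and 94 falls. Leaving out treated tumour 1, treated tumour 3 or vehicle tumour 6 raised the counts, to between 169 and 191 rises and between 237 and 288 falls. As genes chosen for a small p in the same libraries nearly must, all 359 kept their sign and an unadjusted p under 0.05 in each of the 12 fits, with a largest p of 0.00444 among rises and 0.00414 among falls. At its weakest a rise kept a median of 88.4% of its change and a fall 89.5%. Counted by adjusted p, 37 rises and 24 falls passed in at least 10 of the 12 fits, 19 rises and 5 falls passed in 11, and 0 passed in 12. The 143 rises include 19 genes in 1 stretch of repeated copies on chromosome 4, described below. These passed in 6 to 11 fits and are not separate results.

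No gene passed once the islet or the acinar marker mean was added to the fit. With the islet marker mean as a covariate 0 genes passed (limma, smallest adjusted p = 0.234, 753 genes at an unadjusted p under 0.05). Of the 359 genes all kept their direction, 92 of the 143 rises and 131 of the 216 falls kept an unadjusted p under 0.05, and the median changes were 1.22 and -0.83. With the acinar mean 0 passed as well (limma, smallest adjusted p = 0.0704, 2489 genes at an unadjusted p under 0.05). The median changes of the rises and falls were 1.76 and -1.08 in that fit, against 1.85 and -1.22 without a covariate. All 359 kept their direction and an unadjusted p under 0.05 there. The 359 were chosen for a small p in the same libraries, so what they kept in either fit is not separate support. Every treated tumour lay above vehicle tumours 1 to 5 in the islet mean, and the part of islet tissue in the changes was not tested beyond the islet fit. With the hepatocyte mean 224 genes rose and 388 fell, and with the carcinoma epithelium mean 110 and 145.

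**Figure D2:**
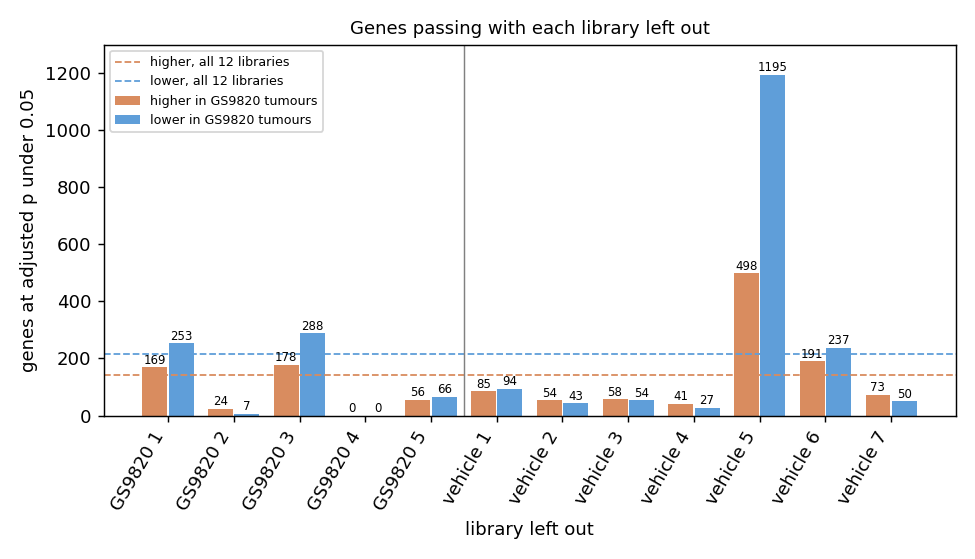
Number of genes at an adjusted p under 0.05 (limma) with the library on the x axis left out, higher and lower in GS9820 tumours, beside the counts from all 12 libraries (dashed, 143 and 216). No gene passes without treated tumour 4, and 498 and 1195 pass without vehicle tumour 5.

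The 12 steadiest rises, with the 12 largest changes set aside, had varied roles, from vessel lining and nutrient uptake to matrix and interferon response. Each is given with the number of leave-one-out fits in which it passed. Npr1 (ENSMUSG00000027931, chromosome 3, 90450591 to 90465866, GRCm38), the receptor for the natriuretic peptides ANP and BNP, stood at 4.66, 5.09, 4.80, 5.16 and 5.03 in treated tumours 1 to 5, against 2.47, 3.45 and 3.80 (lowest, median and highest, as for the 3 vehicle values of every gene below) in vehicle tumours. Every treated tumour lay above every vehicle tumour, and the gap of 0.86 between the nearest libraries of the groups was the widest of the rises named here. The change was 1.69 ± 0.23 (SE, limma, adjusted p = 0.0181, 11 of 12 fits). Clec14a, a lectin of the endothelial surface, stood at 6.03, 6.39, 5.64, 6.98 and 6.38 in treated tumours, against 3.36, 4.65 and 5.27 in vehicle tumours. It rose by 1.78 ± 0.32 and passed in 9 fits. The groups stood apart for both genes.

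Slc1a5 (ENSMUSG00000001918, chromosome 7, 16781340 to 16798274), the glutamine and neutral amino acid transporter ASCT2, stood at 6.58, 6.60, 6.03, 6.87 and 6.39 in treated tumours and at 4.86, 5.45 and 5.58 in vehicle tumours. It rose by 1.13 ± 0.17 (limma, adjusted p = 0.0181, 11 fits), with no overlap. It was the 1 gene of 19 measured amino acid transporters that passed, and the list's median change was 0.25, against -0.06 over all genes tested. Clca3a1, a member of the calcium-activated chloride channel regulator family, rose by 2.0 ± 0.32 (11 fits), with values of 4.78 to 5.72 in treated tumours and 2.19 to 4.20 in vehicle tumours. Ermard, a membrane protein of the endoplasmic reticulum, rose by 1.53 ± 0.25 (11 fits), with values of 5.97 to 7.40 in treated and 4.62 to 5.66 in vehicle tumours. Fmo1, a flavin-containing monooxygenase that oxidises drugs and other nitrogen or sulphur compounds, stood at 3.84, 3.11, 4.82, 4.52 and 2.88 in treated tumours, against 0.92, 1.85 and 2.11 in vehicle tumours. It rose by 2.09 ± 0.36 (11 fits). Its highest value was in treated tumour 3, where hepatocyte markers were highest, and without treated tumours 1 and 3 it still passed.

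A pair of the steadiest rises belongs to the molecular clock. Nr1d2, the nuclear receptor REV-ERBβ, stood at 6.84, 7.07, 6.41, 6.98 and 6.83 in treated tumours, against 5.07, 5.52 and 6.12 in vehicle tumours, and rose by 1.24 ± 0.19 (limma, adjusted p = 0.0181, 10 fits). Dbp, a transcription factor that the clock drives in a daily wave, stood at 7.13, 6.61, 4.57, 6.34 and 5.62 in treated tumours, against 2.81, 3.73 and 4.62 in vehicle tumours. Its groups touched, with treated tumour 3 just below the highest vehicle tumour, and it rose by 2.39 ± 0.42 (10 fits). Nr1d1 (REV-ERBα, 1.52 ± 0.29, 8 fits), Tef (1.18 ± 0.25, 5 fits) and Per3 (1.54 ± 0.32, 3 fits) were picked after their values were seen, from genes that had passed and risen, so their direction was fixed by the choice. Without treated tumours 1 and 3 none of the 3 passed (limma, adjusted p = 0.0515, 0.072 and 0.0604). Nr1d1 and Tef did not overlap between the groups, while in Per3 the highest vehicle tumour (5.34) lay above 2 treated tumours (5.12 and 5.32).

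Ogn, the small leucine-rich proteoglycan osteoglycin, stood at 5.27, 5.31, 4.51, 4.91 and 5.66 in treated tumours, against 2.10, 3.36 and 4.05 in vehicle tumours. It rose by 1.94 ± 0.33 (limma, adjusted p = 0.0189, 10 fits), with no overlap. Iigp1, an interferon-inducible GTPase that attacks the vacuoles of intracellular parasites, stood at 4.23, 4.04, 6.36, 5.86 and 4.84 in treated tumours, against 1.72, 2.31 and 3.52 in vehicle tumours, and rose by 2.54 ± 0.47 (adjusted p = 0.0239, 10 fits). From genes that had passed and risen, with no list behind them, a few were picked after their values were seen. These were Samhd1, a dNTP hydrolase that restricts retroviruses (1.03 ± 0.20, 8 fits), Ube2l6, the ISG15 conjugating enzyme (1.39 ± 0.27, 6 fits), Nlrc5, the activator of MHC class I genes (1.80 ± 0.38, 5 fits), and the GTPase Irgm2 (1.41 ± 0.31, 3 fits). The groups did not overlap in any of these 4. The same held for 94 of all 143 rises and for 2.81% of all genes tested, so the choice from rises favoured it. Without treated tumours 1 and 3, Samhd1 passed, and Ube2l6, Nlrc5 and Irgm2 did not (limma, adjusted p = 0.0674, 0.063 and 0.0604). Nlrc5 was 5.93 in treated tumour 4, the library with the highest T and B cell marker mean (5.27), and 4.51 to 4.63 in treated tumours 1, 2, 3 and 5, while vehicle tumours lay at 1.77 to 3.98.

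**Figure D3:**
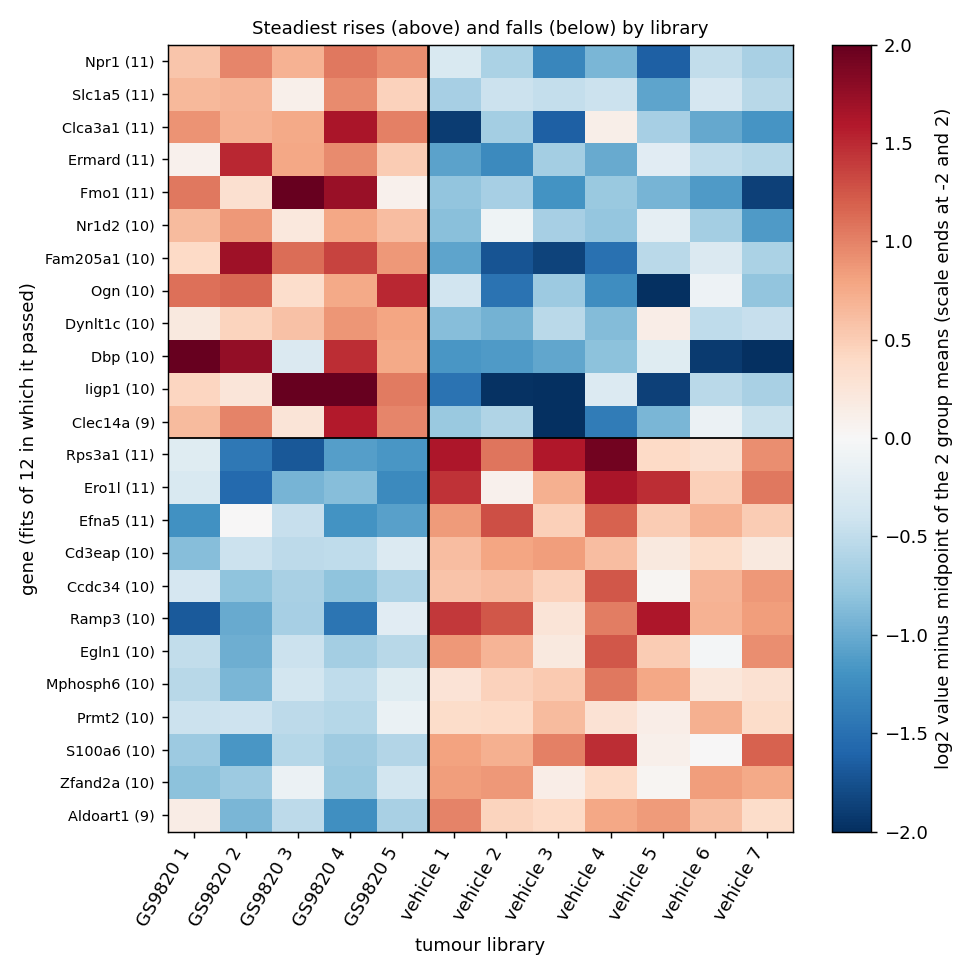
Deposited log2 value of the 12 steadiest rises (above) and 12 steadiest falls (below) in each library, as the difference from the midpoint of the 2 group means, with GS9820 libraries left of the line and the number of leave-one-out fits passed in brackets. Of these genes, Dbp is the one whose groups overlap, in treated tumour 3 and 1 vehicle tumour.

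The 12 steadiest falls likewise had varied roles. Rps3a1 (ENSMUSG00000028081, chromosome 3, 86137940 to 86142702), a protein of the small ribosomal subunit, stood at 8.87, 7.68, 7.42, 8.0 and 7.94 in treated tumours, against 9.42, 10.18 and 11.04 in vehicle tumours. It changed by -2.25 ± 0.33 (SE, limma, adjusted p = 0.0181, 11 fits), with no overlap. Ribosomal protein genes have many processed copies in the genome, and how reads shared with such copies were counted is not given in the sources used here, so its level is uncertain. Ero1l (ENSMUSG00000021831, chromosome 14, 45283087 to 45318771), the oxidase that supplies disulfide bonds in the endoplasmic reticulum, stood at 6.17, 4.93, 5.56, 5.63 and 5.21 in treated tumours, against 6.56, 7.53 and 8.11 in vehicle tumours. It changed by -1.96 ± 0.29 (adjusted p = 0.0181, 11 fits). Both genes lay lower in every treated tumour than in any vehicle tumour.

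Egln1 (ENSMUSG00000031987, chromosome 8, 124908587 to 124949324), the prolyl hydroxylase PHD2 that marks hypoxia-inducible factor for destruction and is itself induced by hypoxia, stood at 4.97, 4.49, 5.03, 4.79 and 4.92 in treated tumours, against 5.42, 6.15 and 6.71 in vehicle tumours. It changed by -1.25 ± 0.22 (limma, adjusted p = 0.0197, 10 fits), with no overlap. The hypoxia-induced Ankrd37, picked after its values were seen, stood at 4.34, 2.21, 2.97, 2.05 and 1.69 in treated tumours, against 3.85, 4.46 and 5.56 in vehicle tumours, so treated tumour 1 lay within the vehicle range, and the gene passed in 4 fits. The promoters of both, from 250 bases before to 50 after the RefSeq start (GRCm38.p6), are shown because both genes are known to respond to hypoxia-inducible factor and both hold its core letters ACGTG, in capitals. The Egln1 window is chr8:124949205-124949504 and the Ankrd37 window chr8:45999801-46000100, both on the minus strand.
Egln1: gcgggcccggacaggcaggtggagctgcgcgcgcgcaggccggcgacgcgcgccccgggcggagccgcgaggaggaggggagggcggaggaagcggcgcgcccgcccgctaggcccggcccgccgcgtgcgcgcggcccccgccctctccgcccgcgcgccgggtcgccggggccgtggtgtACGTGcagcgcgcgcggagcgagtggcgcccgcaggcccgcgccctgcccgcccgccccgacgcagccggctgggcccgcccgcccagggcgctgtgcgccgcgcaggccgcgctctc
Ankrd37: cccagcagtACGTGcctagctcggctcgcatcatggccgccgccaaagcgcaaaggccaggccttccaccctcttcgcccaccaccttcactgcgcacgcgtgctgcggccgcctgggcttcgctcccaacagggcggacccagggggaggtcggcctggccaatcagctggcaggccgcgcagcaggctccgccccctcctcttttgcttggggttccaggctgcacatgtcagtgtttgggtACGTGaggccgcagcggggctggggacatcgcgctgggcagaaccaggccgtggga
The letters ACGTG on either strand stood in a promoter of 58 of 144 genes that fell (40.3%), of 23 of 90 that rose (25.6%) and of 3049 of 10852 genes tested that have a promoter in the table (28.1%). Part of these matches lie in the E-box CACGTG, which contains the same letters and stood in 11.8% of the genes that fell, 6.67% of those that rose and 11.2% of all. Among other motifs, the FoxO letters GTAAACA stood in 0.694% of the genes that fell and 2.22% of those that rose, against 3.24% of all. The AP-1 letters TGANTCA stood in 8.33% and 12.2%, against 6.9% of all. E2F letters (GGCGGGA) stood in 24.3% and 16.7%, against 22.7%, TEAD letters (GGAATG) in 18.1% and 18.9%, against 14.6%, and NF-Y letters (CCAAT) in 39.6% and 32.2%, against 42%. All were counted on both strands. These shares describe letters in a window, and no test was made.

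Cd3eap, a subunit of RNA polymerase I, the enzyme that transcribes ribosomal RNA, stood at 3.43, 3.84, 3.74, 3.76 and 4.0 in treated tumours, against 4.46, 4.88 and 5.11 in vehicle tumours. It changed by -1.03 ± 0.17 (limma, adjusted p = 0.0185, 10 fits). Mphosph6, a partner of the exosome that trims ribosomal RNA, changed by -1.04 ± 0.18 (10 fits), with values of 3.51 to 4.18 in treated and 4.66 to 5.48 in vehicle tumours. From genes that had fallen, with no list behind them, more were picked after their values were seen. These were the polymerase subunits Polr2f (-1.17 ± 0.22, 8 fits), Polr2d (-1.16 ± 0.24, 6 fits) and Polr1d (-0.80 ± 0.17, 3 fits), and Gtf2e2, a subunit of the initiation factor TFIIE (-1.06 ± 0.20, 6 fits). The paired ATPases Ruvbl1 and Ruvbl2, which assemble large protein complexes, changed by -1.28 ± 0.26 (4 fits) and -0.87 ± 0.16 (9 fits). The groups did not overlap in any of these 6 genes. The same held for 151 of all 216 falls and for 2.81% of all genes tested, so the choice from falls favoured it. Without treated tumours 1 and 3, Polr2f and Ruvbl2 passed, and Polr2d, Polr1d, Gtf2e2 and Ruvbl1 did not (limma, adjusted p = 0.0664, 0.073, 0.0576 and 0.0676).

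Efna5, an ephrin that signals between touching cells, stood at 2.88, 4.10, 3.62, 2.89 and 3.0 in treated tumours, against 4.56, 4.78 and 5.38 in vehicle tumours, and changed by -1.58 ± 0.25 (limma, adjusted p = 0.0181, 11 fits). Ramp3, which turns the calcitonin receptor-like receptor into a receptor for adrenomedullin, stood at -0.15, 0.53, 0.87, 0.07 and 1.30 in treated tumours, against 1.79, 2.57 and 3.15 in vehicle tumours, and changed by -2.02 ± 0.34 (10 fits). S100a6, a calcium-binding protein, stood at 9.61, 9.18, 9.77, 9.63 and 9.76 in treated tumours, against 10.35, 11.15 and 11.82 in vehicle tumours. The treated values of S100a6 spanned less than 1 log2 unit, and it changed by -1.51 ± 0.27 (adjusted p = 0.0217, 10 fits). Anxa1, a phospholipid-binding annexin that was picked after its values were seen, changed by -1.19 ± 0.22 (9 fits) and did not pass without treated tumours 1 and 3 (adjusted p = 0.0558). Of the remaining steadiest falls, the arginine methyltransferase Prmt2 changed by -0.82 ± 0.14 and did not pass without treated tumours 1 and 3 (adjusted p = 0.0503). Zfand2a, a zinc finger protein induced by arsenite, changed by -1.11 ± 0.20, and the coiled-coil gene Ccdc34 by -1.28 ± 0.21 (10 fits each). Aldoart1, a copy of the aldolase gene Aldoa, changed by -1.26 ± 0.22 (9 fits), and reads that it shares with Aldoa could not be told apart here. Of the 24 steadiest genes, 12 rises and 11 falls passed without treated tumours 1 and 3, against 181 of all 359 genes. The 24 were ranked by fits that include those without treated tumour 1 and without treated tumour 3, so this is not separate support. Without treated tumour 4 their adjusted p lay between 0.0684 and 0.078.

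The 5 most abundant rises and 5 most abundant falls, S100a6 among them, follow. Dcn, the collagen-binding proteoglycan decorin, stood at 7.86, 8.71, 8.53, 9.26 and 9.35 in treated tumours, against 6.17, 7.03 and 7.91 in vehicle tumours, and rose by 1.61 ± 0.33 (limma, adjusted p = 0.0339, 5 fits). The lowest treated tumour lay within the vehicle range. C1ra, the protease that starts the classical complement pathway, rose by 2.03 ± 0.40 (7 fits), with values of 7.08 to 8.70 in treated and 4.95 to 7.43 in vehicle tumours. C4a, a complement gene whose near-identical neighbour is C4b, rose by 2.37 ± 0.54 (3 fits), with values of 7.75 to 9.67 in treated and 5.59 to 8.84 in vehicle tumours, and its level is uncertain because of that copy. C1rb (1.85 ± 0.37), C6 (2.14 ± 0.47) and C7 (2.58 ± 0.60), complement genes picked from those that had risen after their values were seen, had changes as given, and of these C1rb passed without treated tumours 1 and 3. Rsrp1, an arginine and serine-rich protein, rose by 1.36 ± 0.29 and Tent5a, a poly(A) polymerase, by 1.35 ± 0.29. Without treated tumours 1 and 3, Rsrp1 and C4a did not pass (limma, adjusted p = 0.0545 and 0.0519), and Dcn, C1ra and Tent5a did.

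Pkm, the pyruvate kinase of growing tissue, stood at 9.67, 8.17, 9.25, 8.09 and 8.29 in treated tumours, against 9.32, 10.54 and 11.55 in vehicle tumours. It changed by -1.75 ± 0.38 (limma, adjusted p = 0.0374, 4 fits), and treated tumour 1 lay above the lowest vehicle tumour. The aldolase gene Aldoa changed by -1.18 ± 0.26 and Eno1b, a copy of the enolase gene Eno1, by -1.31 ± 0.27 (4 fits each). Reads that Eno1b shares with Eno1 could not be told apart here, so its level is uncertain. Anxa2, another annexin, changed by -1.12 ± 0.27 and was close to the threshold (adjusted p = 0.0493, 3 fits). It did not pass without treated tumours 1 and 3 (limma, adjusted p = 0.0755). The groups did not overlap in Aldoa, Eno1b and Anxa2, but the gap was 0.03 in Aldoa and 0.01 in Anxa2.

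Further genes stood among the farthest apart between the groups but were not among the steadiest. Bdnf, the neurotrophin of that name, stood at -0.71, 0.98, 1.11, 1.18 and 0.88 in treated tumours, against 2.24, 2.48 and 4.44 in vehicle tumours. Its gap of 1.07 was the widest of the falls named here, and it changed by -2.26 ± 0.46 (limma, adjusted p = 0.0346, 5 fits). Dpp4, a membrane dipeptidase of intestine, fibroblasts and T cells, stood at 6.89, 4.68, 4.60, 5.02 and 5.10 in treated tumours, against 1.45, 2.44 and 3.93 in vehicle tumours, and rose by 2.65 ± 0.50 (7 fits). Its highest value was in treated tumour 1, the library with the highest intestinal marker mean. Cmah, the enzyme that makes the sialic acid Neu5Gc, rose by 2.77 ± 0.57 (5 fits), with 4.77 to 6.98 in treated and 1.39 to 4.10 in vehicle tumours. Tpd52l1, a coiled-coil protein of vesicle traffic, changed by -1.93 ± 0.35 (8 fits), and Nhej1, a factor for joining DNA ends, by -1.50 ± 0.35 (2 fits). Of these genes, Bdnf, Cmah, Nhej1 and Tpd52l1 did not pass without treated tumours 1 and 3 (adjusted p = 0.0622, 0.0645, 0.0718 and 0.0602), while their changes kept their sign.

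In the lists of protein-making and protein-folding machinery most members had changes below 0, and the lists were described without a test. Of all genes tested, 54.7% had a change below 0 and 15.3% were lower at an unadjusted p under 0.05. At an adjusted p under 0.05, 1.33% of all genes fell (limma). In ribosome biogenesis 26 of 26 measured genes were below 0, with a median of -0.69 against -0.06 over all genes tested, and 0 passed (19 lower at an unadjusted p under 0.05). Nip7, a factor for the large subunit, stood at -1.05 ± 0.26 (limma, adjusted p = 0.0559) and Polr1c, a subunit shared by RNA polymerases I and III, at -0.49 ± 0.13 (adjusted p = 0.0598). Of the chaperonin and prefoldin list, which folds actin and tubulin, 13 of 13 were below 0 (median -0.72) and 3 fell. These were Pfdn1 (-1.19 ± 0.25), Pfdn2 (-1.0 ± 0.23) and Cct6a (-0.96 ± 0.21). Of 31 proteasome genes all were below 0 (median -0.49) and 2 fell, Psmb5, the subunit with chymotrypsin-like activity (-0.97 ± 0.20), and Psmd14, the deubiquitinase of the lid (-0.90 ± 0.19). Psmb5 stood at 6.0, 5.74, 5.94, 5.55 and 5.88 in treated tumours, against 6.14, 6.84 and 7.45 in vehicle tumours, with no overlap.

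Members below 0 were also the larger part of the lists that charge transfer RNA, carry proteins through the nuclear pore and make nucleotides. Of 20 cytoplasmic tRNA synthetases 18 were below 0 (median -0.50) and 0 passed (10 at an unadjusted p under 0.05). Dars, for aspartate, stood at 5.08 to 5.17 in treated and 5.29 to 6.19 in vehicle tumours (-0.57 ± 0.17, limma, adjusted p = 0.0819), and Kars, for lysine, at -0.64 ± 0.21. Of 28 nuclear import and export genes 26 were below 0 (median -0.44) and 1 fell, the importin Ipo5 (-0.69 ± 0.14). Of 29 genes of serine, folate and nucleotide synthesis 28 were below 0 (median -0.54) and 1 fell, the nucleoside diphosphate kinase Nme1 (-0.79 ± 0.18). Of 12 tubulins 11 were below 0 (median -0.77) and 0 passed, with Tuba1b at -1.05 ± 0.33 and its close copy Tuba1c at -0.88 ± 0.30. Splicing factors were the exception among these lists, with 15 of 37 above 0 and a median of -0.03. Of them 2 fell, the Sm proteins Snrpf (-1.36 ± 0.24, 9 fits) and Snrpd2 (-0.69 ± 0.16). Without treated tumours 1 and 3, Snrpf passed, and Ipo5, Nme1 and Snrpd2 did not (limma, adjusted p = 0.0685, 0.0852 and 0.0927).

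By library, the mean of the ribosome biogenesis list was 5.04, 5.31, 5.66, 5.44 and 5.58 in treated tumours 1 to 5, against 6.24, 6.13, 6.48, 6.48, 5.40, 5.77 and 5.88 in vehicle tumours 1 to 7. Vehicle tumour 5 lay among the treated tumours and the other 6 lay above them. The same library was the lowest vehicle tumour in the chaperonin, proteasome, tRNA synthetase, nuclear transport, nucleotide and tubulin lists. It also had the highest neutrophil marker mean (6.13, against 1.26 to 4.43 in treated and 3.27 to 4.07 in the other vehicle tumours), and the part of that in the low values was not tested. Without treated tumours 1 and 3 the list medians were -0.65 for ribosome biogenesis, -0.70 for chaperonin and prefoldin and -0.49 for the proteasome, and 0, 0 and 1 of their members passed. With the islet marker mean as a covariate they were -0.19, -0.42 and -0.31, and with the acinar mean -0.56, -0.63 and -0.40, against -0.04 and -0.06 over all genes.

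**Figure D4:**
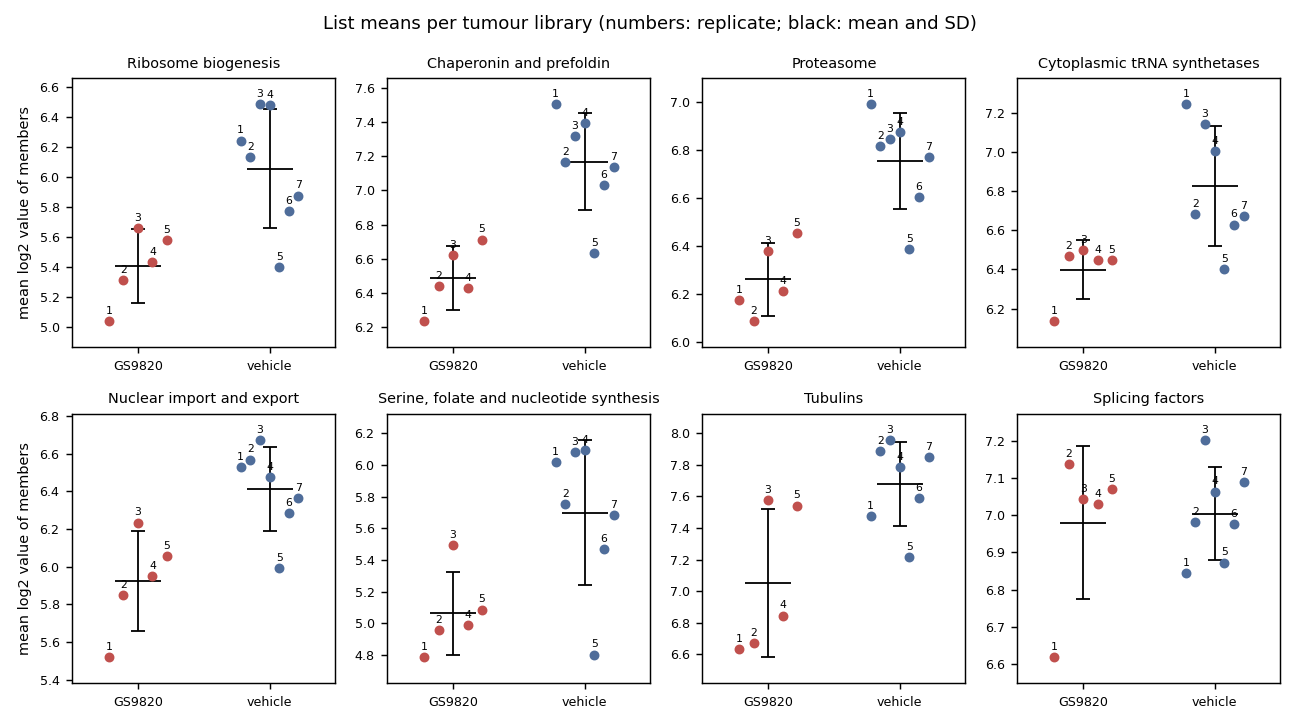
Mean log2 value of the members of 8 gene lists in each tumour library (numbers are replicates), GS9820 left and vehicle right, with the mean and SD of each group in black. In 7 lists the treated tumours lie mostly below vehicle tumours, with vehicle tumour 5 among them, and in the splicing factor list the groups overlap, with treated tumour 1 lowest (6.62).

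Growth factor signalling lists held few genes that passed. Of 19 ERK outputs and feedback genes 17 were below 0 (median -0.62) and 1 fell, Dusp4, a phosphatase that ERK induces and that switches it off. Dusp4 stood at 4.68, 5.48, 6.33, 5.61 and 6.23 in treated tumours, against 6.75, 7.13 and 7.49 in vehicle tumours, and changed by -1.42 ± 0.26 (limma, adjusted p = 0.0239, 8 fits). With the islet covariate the list's median was -0.10. None of the EGF family (15 genes), PDGF, VEGF, FGF, HGF and angiopoietin (23), IGF (14), TGF-β and BMP (28), Wnt (32), Hedgehog (13), Notch (17) or axon guidance (33) genes passed, in a fit where 2.2% of all genes did. Their medians lay between -0.18 and 0.37. Without treated tumours 1 and 3, Gli1 of the Hedgehog list (2.12, limma, adjusted p = 0.0162) and Lfng of the Notch list (0.94, adjusted p = 0.0172) passed. No other gene of these lists passed there.

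In the fit of all 12 libraries the list members with the smallest p did not pass either, with adjusted p from 0.0509 to 0.188 (limma). The ErbB ligand gene Nrg1 stood at -0.99 to 0.38 in treated and 0.70 to 3.48 in vehicle tumours, without overlap (-2.02 ± 0.50, limma, adjusted p = 0.0551), and the EGF receptor ligand gene Hbegf at -0.93 ± 0.32 (adjusted p = 0.114). The semaphorin Sema3e stood at -2.03 ± 0.49 (adjusted p = 0.0509) and the axon repellent Slit1 at -1.68 ± 0.43. Axin2, a feedback target of Wnt signalling, stood at 1.12 ± 0.28 (adjusted p = 0.0559) and the Wnt receptor Fzd4 at 0.81 ± 0.21, both without overlap. The Hedgehog target Gli1 stood at 1.55 ± 0.42 and its inhibitor Sufu at -0.55 ± 0.23 (adjusted p = 0.169). Igf1 stood at 2.06 ± 0.57 and Igfbp6 at 1.11 ± 0.30, Fgf9 at 1.89 ± 0.51 and Angpt2, a ligand that loosens vessels, at -1.19 ± 0.34. In the Notch list the feedback gene Nrarp stood at -1.06 ± 0.28 and the glycosyltransferase Lfng at 0.61 ± 0.22 (adjusted p = 0.123). The co-receptor Tgfbr3 stood at 1.24 ± 0.43 (adjusted p = 0.115) and the BMP receptor Bmpr2 at -0.44 ± 0.20 (adjusted p = 0.188).

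The adhesion and matrix lists are given beside the 0.878% of all genes tested that rose and the 1.33% that fell. Of 31 proteoglycans, elastic fibre and matricellular genes 2 rose, Ogn and Podn, both small leucine-rich proteoglycans (18 above and 13 below 0, median 0.18). That median was -0.005 without treated tumour 3 and 0.006 with the islet covariate. Podn stood at 4.88, 5.92, 3.45, 4.45 and 4.19 in treated tumours, against 1.40, 2.32 and 3.47 in vehicle tumours, so that treated tumour 3 touched the vehicle range, and rose by 2.22 ± 0.43 (limma, adjusted p = 0.0286, 8 fits). Of 18 collagen-modifying enzymes 15 were below 0 (median -0.61) and 1 fell, P4ha1, the catalytic subunit of collagen prolyl hydroxylase (-1.44 ± 0.31, 3 fits), with no overlap. This median was -0.37 without vehicle tumour 1 and -0.25 with the acinar covariate. Of 16 laminin-332, hemidesmosome and epithelial integrin genes 12 were below 0 (median -0.46), and Itgb1, the β1 integrin, fell by 1.23 ± 0.29 on the log2 scale. Itgb1 did not pass without treated tumours 1 and 3 (limma, adjusted p = 0.0969). Of 29 actin cytoskeleton genes 23 were below 0 (median -0.32) and 0 passed, with the capping protein Capg at -0.77 ± 0.23 and vinculin (Vcl) at -0.69 ± 0.20. Tight junction and desmosome genes had the highest median of these lists, 0.80, with 0 of 21 past the threshold and the claudins Cldn4 at 1.80 ± 0.74 and Cldn3 at 1.67 ± 0.81. Without vehicle tumour 1, low in carcinoma epithelium, that median was 0.31. The basal and squamous list had a median of -0.06, with Sprr1a at -3.06 ± 0.75 (adjusted p = 0.0548) and Krt6b at -2.98 ± 0.96.

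**Figure D5:**
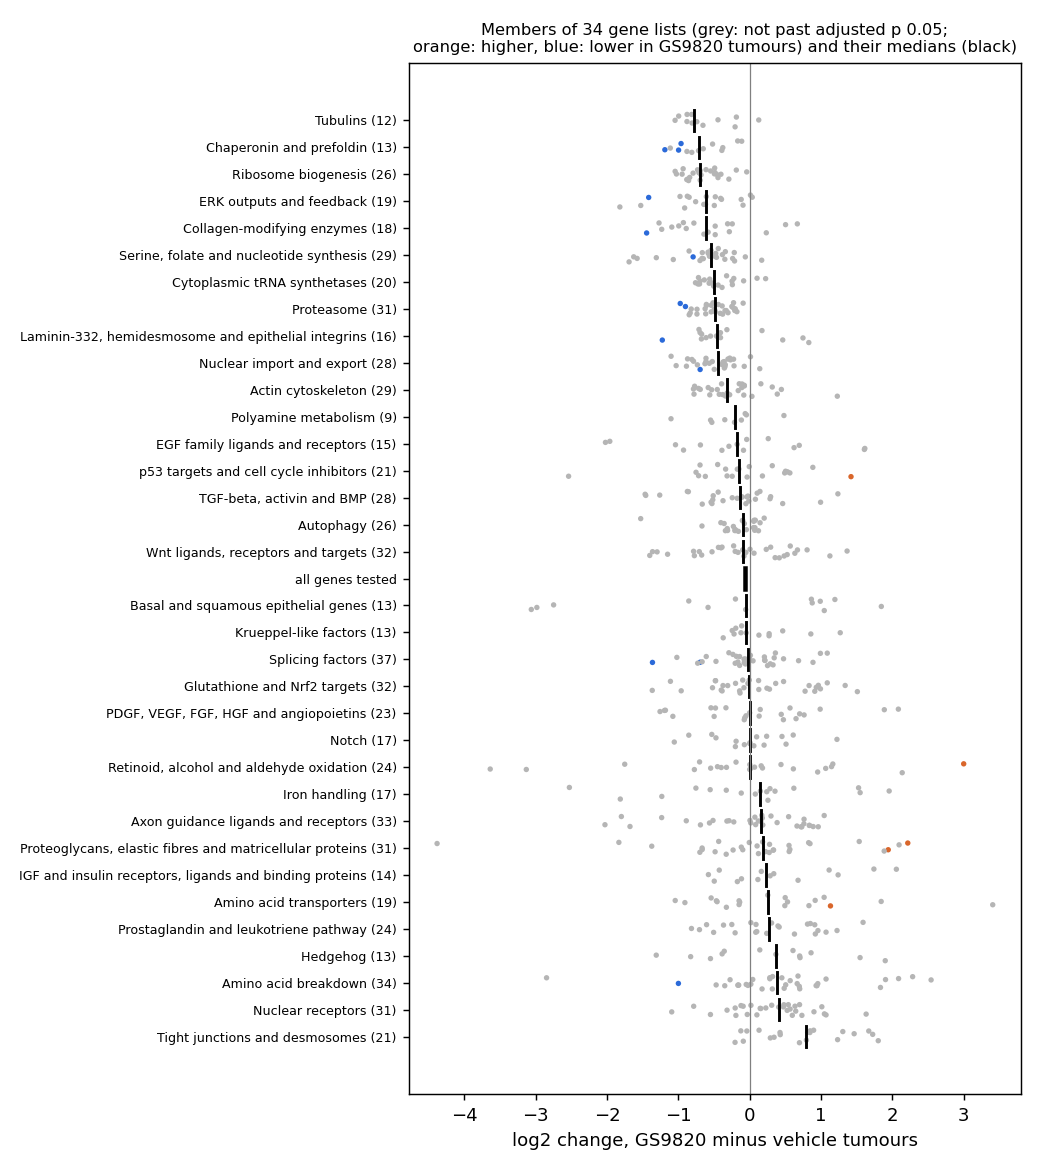
Change of every measured member of 34 gene lists (points, grey where not past the threshold, orange where higher and blue where lower, GS9820 minus vehicle tumours on the log2 scale, number measured in brackets) and the list's median (black line), ordered by median. Ribosome biogenesis, chaperonin and prefoldin, and proteasome lists have no member above 0, and most other lists spread on both sides of 0.

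Among metabolic lists, the retinoid, alcohol and aldehyde oxidation list had 1 of 24 genes rise, Aox3, an aldehyde oxidase. Over all genes tested, 0.878% rose and 1.33% fell. Aox3 stood at 2.06, 3.76, 6.01, 2.59 and 3.17 in treated tumours, against -0.62, 0.38 and 1.51 in vehicle tumours, without overlap, and rose by 3.0 ± 0.64 (limma, adjusted p = 0.0351, 5 fits). Its highest value was in treated tumour 3, where hepatocyte markers averaged 11.79. Amino acid breakdown had 24 of 34 genes above 0 (median 0.39), but the 1 gene that passed fell, Gcsh of the glycine cleavage system (-1.0 ± 0.22). Without treated tumour 3 this median was 0.17. Of 9 polyamine genes 8 were below 0 (median -0.21) and 0 passed. Odc1, the enzyme that starts polyamine synthesis, stood at 7.04, 6.83, 6.84, 7.07 and 7.01 in treated tumours, against 7.33, 7.65 and 9.64 in vehicle tumours. Its groups did not overlap, with a change of -1.10 ± 0.36 (adjusted p = 0.096), and spermidine synthase (Srm) stood at -0.53 ± 0.32.

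Glutathione and Nrf2 targets (32 genes), iron handling (17) and the prostaglandin and leukotriene pathway (24) held 0 genes past the threshold, against 2.2% of all genes. Their medians were -0.01, 0.15 and 0.27. In these lists glutathione reductase (Gsr) stood at -1.11 ± 0.35 and the glutathione transferase Gstm2 at 1.34 ± 0.40. The metalloreductases Steap3 and Steap4 stood at 1.55 ± 0.48 and 1.96 ± 0.64, and the prostacyclin and prostaglandin E receptors Ptgir and Ptger4 at 1.23 ± 0.31 and 0.92 ± 0.27. Ptger4 passed without treated tumours 1 and 3 (1.22, limma, adjusted p = 0.0259). Nuclear receptors had 22 of 31 genes above 0 (median 0.41) and 0 passed, with Nr0b2 (SHP) at 1.63 ± 0.56 and the thyroid hormone receptor Thrb at 0.73 ± 0.29. Without treated tumours 1 and 3 their median was 0.05. Of 21 p53 targets and cell cycle inhibitors 1 rose, Trp53inp1, which p53 induces (1.42 ± 0.32, 3 fits, no overlap), while 13 were below 0. Trp53inp1 did not pass without treated tumours 1 and 3 (limma, adjusted p = 0.0671). Autophagy (26 genes) and Krueppel-like factors (13) had medians of -0.10 and -0.05 and 0 past the threshold. Among them Atg101 stood at -0.67 ± 0.18, the hypoxia-induced Bnip3 at -1.53 ± 0.55, Klf15 at 1.27 ± 0.47 and Klf4 at 0.86 ± 0.43. Of these, Bnip3 passed without treated tumours 1 and 3 (-2.34, limma, adjusted p = 0.0172).

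Of 163 measured cell type markers 12 rose (7.36%, against 0.878% of all genes) and 0 fell. The lists were written with earlier results of these data known, and the islet list holds some of the 12 largest rises. This share is therefore not separate support. Of 15 islet markers 4 rose and 13 were above 0 (median 4.17), and islet means separated the treated tumours from vehicle tumours 1 to 5 as given above. Hepatocyte (8 genes, median 2.71) and adipocyte markers (8 genes, median 3.41) had 0 past the threshold, with medians of 0.60 and 1.59 without treated tumours 1 and 3. In the acinar list all 19 genes were above 0 and 1 rose, the transcription factor Nr5a2. It stood at 4.40, 5.09, 3.78, 4.25 and 4.66 in treated tumours, against 0.86, 2.35 and 3.16 in vehicle tumours, without overlap (2.28 ± 0.41, limma, adjusted p = 0.0219, 8 fits). Of 9 blood endothelial markers 2 rose, Kdr, the VEGF receptor (1.06 ± 0.23), and the secreted Egfl7 (1.02 ± 0.22), with a median of 0.78. Of 10 fibroblast markers all were above 0 (median 0.87) and 2 rose, Dcn and Dpt, a matrix protein (1.99 ± 0.44, 6 fits). The sodium channel gene Scn7a of glia was the 1 of 8 Schwann cell and neuron markers that rose (2.31 ± 0.49), and the list's median was 0.04. Gpm6a (1.89 ± 0.39) was the 1 of 8 mesothelial and Anpep (2.25 ± 0.49) the 1 of 6 intestinal markers that rose. Anpep was 8.83 in treated tumour 1, and the intestinal median of 1.49 was -0.23 without that library.

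All 7 lymphatic endothelial markers were above 0 (median 1.73) and 0 passed, with Mmrn1 at 2.07 ± 0.62 and Prox1, the factor that defines this lineage, at 1.73 ± 0.50 (limma, adjusted p = 0.0809 and 0.0742). The lymphoid follicle list (11 genes, median 1.51) and the T and B cell list (11 genes, median 1.46) had every gene above 0 and 0 past the threshold. Ccl19, a chemokine of lymphoid stroma, stood at 2.06 ± 0.56, the lymphotoxin gene Ltb at 1.69 ± 0.71, Cd2 at 2.03 ± 0.81 and Cd8a at 2.24 ± 1.11. Without treated tumour 4, the medians were 0.75 and 0.87. All 9 neutrophil markers were below 0 (median -1.24) and 0 passed, and without vehicle tumour 5 the median was -0.73. Macrophage markers (10 genes, median 0.18) and pericyte and smooth muscle markers (10 genes, median 0.15) split on both sides of 0.

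By position, rises clustered at 2 places. On chromosome 4, 19 of the 24 rises of that chromosome lay between 41809083 and 42856771 (GRCm38), in a stretch of repeated gene copies that holds Fam205a1 to Fam205a4 and predicted genes. Their changes ran from 2.18 to 3.27, and they passed in 6 to 11 of the leave-one-out fits. Fam205a1 stood at 2.69, 3.99, 3.41, 3.64 and 3.15 in treated tumours, against 0.44, 1.23 and 1.99 in vehicle tumours, without overlap (2.18 ± 0.35, limma, adjusted p = 0.0181). Copies in this stretch are near-identical, so their counts may share reads and are not separate results. On chromosome 17, 5 rises lay between 6306340 and 6639790, the dynein light chain copies, of which the first pair was picked after their values were seen, Dynlt1a (1.08 ± 0.22), Dynlt1b (1.33 ± 0.24) and Dynlt1c (1.16 ± 0.20) and 2 pseudogenes, with the same limit. Dynlt1a did not pass without treated tumours 1 and 3 (limma, adjusted p = 0.0729).

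Falls were more frequent on chromosome 8, where 33 of 874 genes tested fell (3.78%, against 1.33% of all genes) and 9 rose (1.03%). Egln1, Itgb1, Dusp4, Gcsh, Mphosph6, Gtf2e2 and Asah1, the acid ceramidase (-0.93 ± 0.17, 9 fits, picked after its values were seen), are among them. Gtf2e2, Dusp4 and Asah1 lie between 33731833 and 41374773, and Gcsh, Mphosph6, Egln1 and Itgb1 between 116981810 and 128733200. Asah1 did not pass without treated tumours 1 and 3 (limma, adjusted p = 0.0637). The median change of chromosome 8 genes was -0.24, against -0.06 over all genes, and 27% were lower at an unadjusted p under 0.05, against 15.3% of all genes. Chromosomes 18 and 15 had medians of -0.22 and -0.20, with 20.9% and 18.8% lower at that p. By library, the median deviation of chromosome 8 genes from each gene's mean was -0.27, -0.14, -0.15, -0.16 and -0.10 in treated tumours 1 to 5, against 0.09, 0.19, 0.16, 0.38, -0.09, -0.07 and 0.14 in vehicle tumours 1 to 7. Treated tumours thus lay below all vehicle tumours in this measure, with treated tumour 5 and vehicle tumour 5 nearly level, and vehicle tumour 4 was highest. Chromosome 5 followed with 22 of 1015 genes falling (2.17%).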

How the data were processed

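Total RNA of 12 KPC tumours was sequenced after ribosomal RNA removal with a stranded kit on 1 lane with 100 bp paired reads, per the labels' protocols. The submitters' processing notes name TopHat2, STAR, limma and the build mm10, without versions or roles. The deposited log2 values, whose header reads log2 RPKM, share nearly 1 distribution over the libraries: sorted values differ by at most 0.861. Counts could not be recovered, so depth is unknown and no interval that needs it is given. Genes with a value of at least 0 in at least 5 tumours were kept (16296 of 16322). No 2 libraries were identical (correlations 0.630 to 0.945).

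limma 3.58.1 (lmFit, eBayes with trend) in R 4.3.3 compared treated with vehicle tumours, with Benjamini-Hochberg adjustment over all genes kept and a threshold of 0.05. A change is the difference of group means on the log2 scale and its error the standard error (SE). The fit was checked on simulated data, repeated with each of the 12 libraries left out, and run with other filters, scalings, covariates and a replicate block. Members, lists and tests were chosen with earlier results of these data known. Named genes are the 12 steadiest rises and 12 steadiest falls (most leave-one-out fits passed, then smallest largest p), the 5 most abundant and the 5 farthest apart in each direction, in each list up to 4 members that passed or, with none, 2 at most of smallest p, and lastly Pik3cd. These leave out the 12 largest rises and falls, predicted genes and pseudogenes, and genes picked later are marked in the text. Gene names come from GENCODE M21 (GRCm38) and promoters from RefSeq (GRCm38.p6, 10852 genes matched). No gene tested with a known position lay on chromosome X or Y, and no step here removed such genes. The 14 libraries of sorted cells were not analysed here.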

Additional observations from a re-analysis of the deposited data

Results flagged for a closer look

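Of 364 groups of values checked, 24 held a library far from the rest of its group, and chance gives about 1 in 20. In treated tumour 1, Dpp4 (6.89), Thrb (4.97), Klf4 (9.40) and Cldn3 (8.15) lay far above the other treated tumours. Bdnf (-0.71), Ipo5 (6.31) and Egfl7 (5.47) lay far below them there, as did the means of the tRNA synthetase (6.13) and splicing factor lists (6.62). That library also had the highest intestinal marker mean (11.21), and the part of this in these values was not tested. In treated tumour 3, Angpt2 (3.92) and the means of the retinoid, alcohol and aldehyde oxidation (5.34) and amino acid breakdown lists (5.58) lay far above, and Sema3e (1.76) and Ptger4 (4.40) far below the other treated tumours. Hepatocyte markers averaged 11.79 in treated tumour 3, and their part was not tested. S100a6 was low in treated tumour 2 (9.18). In treated tumour 4, Axin2 was low (3.99) and Nlrc5 high (5.93).

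Among vehicle tumours, number 1 lay far below the others in Krt18 (8.40) and in the carcinoma epithelium mean (3.68). Vehicle tumour 4 lay far above in the hepatocyte mean (6.73). Vehicle tumour 5 lay far above in the neutrophil mean (6.13) and far below in Nme1 (6.53) and Snrpf (3.33). Anxa1 was high in vehicle tumour 6 (9.55).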

How the results depend on the processing

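Counts of rises and falls (143 and 216) stayed within 1.5 times without a filter, with a stricter filter, with log2(value + 1), quantile normalization, median centring, robust or untrended eBayes and the carcinoma epithelium covariate. Array quality weights gave 1081 and 1683, with 408 called genes not overlapping (245 in the reported fit) and 1399 in at least 10 leave-one-out fits (61 in the reported fit). The acinar and the islet covariates gave 0 in all 4 counts, and the hepatocyte covariate 224 rises and 388 falls with 5 in at least 10 fits. The carcinoma epithelium covariate left 2 in at least 10 fits. Leaving out 1 library gave 0 to 498 rises, 0 to 1195 falls and 0 to 1003 called genes not overlapping. The count over leave-one-out fits was not run for settings that leave out libraries or for the replicate block. Of results for single genes, 2687 kept their side of the threshold, 774 lost and 97 gained it, and Srm reversed with the islet covariate (0.36, limma, adjusted p = 0.968). The causes were not tested. Of list medians, 1302 moved by less than the spread between libraries and 48 by more. The unknown depth limits what can be said of low values.

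With the replicate number as a block, which leaves 10 libraries, 142 genes rose, 29 fell and 124 did not overlap, and 73 of the 359 genes were still called. The same 10 libraries without the block, chosen after seeing the data, gave 168 and 87, with 175 of the 359. Same-numbered libraries correlated at -0.179, 0.200, 0.263, 0.087 and -0.0841 in their deviations from the group means. Each treated tumour correlated more with a vehicle tumour of another number. Such deviations also hold differences in tissue between libraries, so they cannot settle whether the numbers pair the libraries.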
